A study of Mus musculus with 6 samples.

Results

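Expression of 9 genes of the complement system was examined in astrocytes from the mouse brain after mock or quinpirole treatment. They were *C3*, *C4b*, *C1qa*, *C1qb*, *C1qc*, *Cfb*, *C3ar1*, *Serping1* and *Cd55*. All 9 symbols had a row in the deposited tables, out of 17193 Ensembl gene identifiers. The genes were chosen because *C3* was known to be clearly lower after quinpirole in these same libraries, so they were selected on the contrast described here. Their values in that contrast are therefore given as a description, without a p-value. *C3* was lower by 40.4% after quinpirole and *C4b* was lower by 25.3%, whereas the levels of *C1qb*, *C1qc*, *C3ar1* and *Serping1* overlapped between the groups and *C1qa* was higher in each quinpirole library than in each mock library.

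The astrocytes were isolated from the brains of C57BL/6 mice of wild type genotype, 3 months old, with beads against ACSA-2, a surface antigen encoded by *Atp1b2*. One group had been given quinpirole, an agonist of the dopamine receptor DRD2, and the control group is labelled Mock, with 3 libraries in each. Both groups shared strain, genotype and age. The dose and duration of the treatment for these mice are not given in the sources used here, nor whether each library came from 1 animal or from a pool, and p-values then measure only the spread between these libraries, which may be technical. The libraries were made from poly-A RNA, and the values are FPKM, the number of sequenced fragments scaled to transcript length and to the depth of the library, so that levels are per length and may be compared between genes.

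Complement is a cascade of secreted proteins that marks targets for removal and can lyse cells. In the classical pathway the recognition molecule C1q, assembled from several kinds of chain, activates the proteases C1r and C1s, which cleave C4 and C2 to form an enzyme that splits C3. The C3 fragments tag surfaces and signal through receptors, and surface and soluble inhibitors restrain each step. In the brain, microglia are the main source of C1q, reactive astrocytes are a known source of C3, and both proteins are known for their part in the removal of synapses.

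Promoter sequences are shown for *C3*, which had the largest difference of the 9 genes, and for *C1qb* and *C1qc*, neighbours in the C1q cluster. Each is the stretch of 250 bases before the RefSeq gene start on GRCm38.p6, read 5′ to 3′ on the minus strand, on which all of these genes lie. RefSeq sequences were held for 5 of the 9 genes, and those of *C1qa*, *C4b*, *Cfb* and *Serping1* were not used here. Capitals mark a match to 1 of 5 short motifs, a TATA box, an ETS core of the type bound by PU.1 (a factor of microglia and other myeloid cells), and STAT, C/EBP and kappaB forms, each searched on both strands.
C3 promoter, chr17:57228137-57228386: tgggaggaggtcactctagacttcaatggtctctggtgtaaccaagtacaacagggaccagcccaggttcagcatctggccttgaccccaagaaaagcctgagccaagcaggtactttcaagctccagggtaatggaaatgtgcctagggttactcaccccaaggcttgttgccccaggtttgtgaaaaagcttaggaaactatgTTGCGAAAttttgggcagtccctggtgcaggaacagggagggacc
C1qb promoter, chr4:136886201-136886450: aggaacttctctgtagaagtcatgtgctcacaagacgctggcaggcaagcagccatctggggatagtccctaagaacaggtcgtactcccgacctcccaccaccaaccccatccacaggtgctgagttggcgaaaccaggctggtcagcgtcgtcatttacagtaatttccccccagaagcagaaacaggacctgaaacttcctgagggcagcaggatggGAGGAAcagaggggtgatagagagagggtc
C1qc promoter, chr4:136892915-136893164: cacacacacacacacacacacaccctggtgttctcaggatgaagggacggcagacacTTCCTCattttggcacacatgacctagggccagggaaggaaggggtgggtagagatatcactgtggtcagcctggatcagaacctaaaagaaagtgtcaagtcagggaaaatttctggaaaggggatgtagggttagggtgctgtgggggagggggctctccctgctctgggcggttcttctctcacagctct
The *C3* sequence held the C/EBP form, searched as TTGCNNAA, 45 to 38 bases before the start, as did 9.56% of the 32851 mouse promoters of this length. The ETS core, searched as GAGGAA, stood 30 to 25 bases before the start of *C1qb* and, on the opposite strand, 193 to 188 bases before that of *C1qc*, against 23.3% of all promoters. In *C3ar1* the TATA box, searched as TATAAA, was found 235 to 230 bases and the kappaB form, on the opposite strand, 14 to 5 bases before the start, against 12.4% and 1.41% of all promoters. The STAT form, searched as TTCNNNGAA and held by 7.02% of promoters, was in 0 of the 5 sequences, and *Cd55* held no match. No matches overlapped each other. A match describes letters in the sequence and not a bound site. The start that GENCODE gives *C1qc* lies inside the window shown, since it differs from the RefSeq start.

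The 9 genes spanned a wide range of levels in the mock libraries. The C1q chains were highest, with *C1qa* at 198 to 217 FPKM, *C1qb* at 185 to 205 FPKM and *C1qc* at 176 to 205 FPKM. These ranges overlapped, so the order among the 3 chains was within their spread. *C3* followed at 84.2 to 91.2 FPKM, then *Serping1* at 33.3 to 43.1 FPKM. *C4b* stood at 15.5 to 20.0 FPKM and *C3ar1* at 14.2 to 15.2 FPKM, with no overlap but a small gap. *Cd55* at 0.801 to 1.00 FPKM and *Cfb* at 0.667 to 0.714 FPKM were lowest. After quinpirole *C1qc* had a higher mean than *C1qb*, within their spread, and *C4b* at 13.1 to 13.9 FPKM was below *C3ar1* at 14.7 to 15.6 FPKM.

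**Figure D1:**
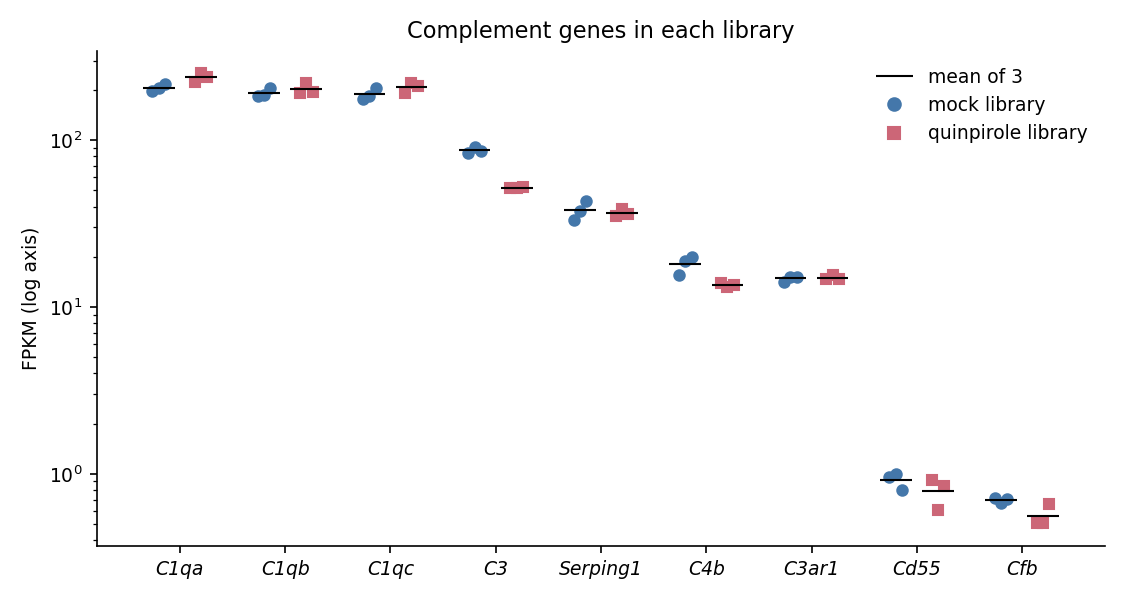
FPKM (log axis) of the 9 complement genes in each of 3 mock libraries (circles) and 3 quinpirole libraries (squares), with a line at the mean of 3. The quinpirole values of *C3* lie together near 52.0 FPKM, well below the mock values, whereas *C3ar1* and *Serping1* values intermingle.

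Differences were computed on log2(FPKM + 1) with limma for 12255 genes, those whose FPKM averaged at least 1 over the libraries, and a gene is termed called when its Benjamini-Hochberg adjusted p is under 0.05. Because of the added 1, this scale understates the change of weakly expressed genes. Over all genes tested 10.9% were called, with 5.18% lower and 5.74% higher after quinpirole, and in 36.9% the 3 quinpirole values did not overlap the 3 mock values. The split was 704 genes higher and 635 lower, but 283 higher and 500 lower after quantile normalization. Of the 9 complement genes 7 were tested, and *Cfb* and *Cd55* were below the limit. Among the 7, *C3* and *C4b* were called lower and 0 were called higher, and 3 of the 7 did not overlap between the groups. Since the genes were selected on this contrast, nothing is read from these counts. The median log2 difference was 0.02 over the 7 genes and 0.02 over all genes tested.

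*C3* encodes the central component of the cascade, whose cleavage is shared by all activation routes. The gene (ENSMUSG00000024164) lies at chr17:57203970-57228136 on GRCm38, with 5143 exonic nucleotides, and 0.0% of the 50-base words of its longest transcript occur in other genes. Its level was 84.2, 91.2 and 86.5 FPKM in mock libraries 1 to 3, and 51.8, 51.7 and 52.6 FPKM in quinpirole libraries 1 to 3. All quinpirole libraries were low and closely alike, and the groups were far from overlapping. The mean was 87.3 ± 3.55 FPKM (SD, n = 3) in mock and 52.0 ± 0.472 FPKM (SD, n = 3) in quinpirole libraries, a log2 difference of -0.74 with a standard error of 0.04. Of the 12255 genes tested, 25 had a lower log2 difference than *C3*. With each library left out in turn the difference of *C3* stayed between -0.76 and -0.70. In RNA from a bulk isolate, fewer cells of a type and less RNA per cell cannot be told apart.

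*C4b* encodes C4, which is cleaved by C1s and becomes part of the enzyme that splits C3. Its gene is at chr17:34728380-34743882, and 35.2% of the 50-base words of its longest transcript are shared with its near-identical neighbour *C4a*, which had no row, so reads of the pair may have been counted here. *C4b* stood at 15.5, 18.9 and 20.0 FPKM in mock libraries 1 to 3, and at 13.9, 13.1 and 13.6 FPKM in quinpirole libraries 1 to 3. Each quinpirole library was below each mock library, but mock library 1 was nearer to the quinpirole values than to the other mock libraries. The mean was 18.1 ± 2.32 FPKM in mock and 13.5 ± 0.401 FPKM in quinpirole libraries (SD, n = 3 each), a log2 difference of -0.39 with a standard error of 0.09. The call of *C4b* was lost when any 1 of the 6 libraries was left out, with differences from -0.49 to -0.32. Over all genes tested the number called was 1339 with all libraries and from 3 to 1215 with 1 left out.

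*Cfb* encodes factor B, the protease part of the alternative pathway that amplifies the cleavage of C3. The gene lies at chr17:34856374-34862518. It was at 0.714, 0.667 and 0.710 FPKM in mock libraries and at 0.506, 0.507 and 0.657 FPKM in quinpirole libraries 1 to 3. The groups did not overlap, although quinpirole library 3 came close to the lowest mock library. These levels correspond to an estimated 35.3 to 51.9 fragments per library, and the gene was below the limit for testing. Of its 50-base words 81.4% are shared with the overlapping gene model *Gm20547*, which was itself listed at 0 to 0.0516 FPKM, so the division of reads between the pair is uncertain.

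*C1qa*, *C1qb* and *C1qc* encode the A, B and C chains of C1q, the molecule that recognizes targets in the classical pathway, and lie side by side at chr4:136880129-136898803. *C1qa* was at 198, 205 and 217 FPKM in mock libraries 1 to 3 and at 224, 252 and 239 FPKM in quinpirole libraries 1 to 3, without overlap. *C1qb* was at 185, 188 and 205 FPKM in mock and at 192, 220 and 194 FPKM in quinpirole libraries. *C1qc* was at 176, 185 and 205 FPKM in mock and at 192, 219 and 212 FPKM in quinpirole libraries. For both *C1qb* and *C1qc* mock library 3 lay among the quinpirole values, and quinpirole library 2 was highest for all 3 chains. The log2 difference was 0.21 (SE 0.05) for *C1qa*, 0.07 (SE 0.06) for *C1qb* and 0.14 (SE 0.07) for *C1qc*, and 0 of the 3 were called. After quantile normalization the difference of *C1qb* was -0.05, that is, of opposite sign, while *C1qa* and *C1qc* stood at 0.09 and 0.02.

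The chains did not keep exactly the same proportion. The ratio of *C1qa* to *C1qb* was 1.07, 1.09 and 1.06 in mock libraries and 1.16, 1.14 and 1.23 in quinpirole libraries, again without overlap. The ratio of *C1qc* to *C1qb* was 0.978 ± 0.0226 in mock and 1.03 ± 0.0533 in quinpirole libraries (SD, n = 3 each), with overlapping values. The ratio of *C3* to *C1qa* showed the widest separation, at 0.399 to 0.446 in mock and 0.205 to 0.231 in quinpirole libraries. The ratio of *C3* to *C4b* was 4.33 to 5.43 in mock and 3.72 to 3.95 in quinpirole libraries, so *C3* was lower relative to *C4b* in each quinpirole library. These ratios use the same values that chose the genes and are a description.

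*C3ar1* encodes the receptor for the C3a fragment, which in the brain is carried mainly by microglia. It was at 14.2, 15.2 and 15.1 FPKM in mock libraries and at 14.8, 15.6 and 14.7 FPKM in quinpirole libraries 1 to 3. The groups overlapped, with means of 14.8 ± 0.544 and 15.0 ± 0.479 FPKM (SD, n = 3 each) and a log2 difference of 0.02 with a standard error of 0.05. Its gene is at chr6:122847138-122856161 and shares 0.0% of its 50-base words with other genes.

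*Serping1* encodes the C1 inhibitor, which inactivates the proteases C1r and C1s. The gene lies at chr2:84765387-84775444. Its level was 33.3, 37.9 and 43.1 FPKM in mock libraries and 35.4, 38.9 and 36.2 FPKM in quinpirole libraries 1 to 3. The quinpirole values lay within the wider mock range, with means of 38.1 ± 4.90 and 36.8 ± 1.85 FPKM (SD, n = 3 each) and a log2 difference of -0.04 with a standard error of 0.09. The direction turned to 0.05 without mock library 3. The ratio of *C3* to *Serping1* was 2.01 to 2.53 in mock and 1.33 to 1.46 in quinpirole libraries.

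*Cd55* encodes a membrane protein that speeds the decay of the enzymes that split C3. The gene lies at chr1:130439027-130462744. Its level was 0.953, 1.00 and 0.801 FPKM in mock libraries and 0.916, 0.609 and 0.847 FPKM in quinpirole libraries 1 to 3. The groups overlapped, at an estimated 48.3 to 86.1 fragments per library, and the gene was below the limit for testing. Of its 50-base words 10.7% are shared with *Cd55b*, which had no row.

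Several of the 9 genes shared their lowest or highest library within a group. Mock library 1 was the lowest mock library for 7 of the 9 genes, and mock library 3 was the highest for 5, namely *C4b*, the C1q chains and *Serping1*. Among quinpirole libraries, library 2 was highest for the C1q chains, *C3ar1* and *Serping1*, and library 1 was lowest for 5 genes. The FPKM of all genes summed to 401769, 402354 and 413730 in mock libraries 1 to 3. In quinpirole libraries 1 to 3 the sums were 426492, 437164 and 425244. How often each library was lowest or highest over all genes was not counted. *C3* varied little within a group, which made its separation wide compared with its spread.

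The other genes of the pathway were taken from a list of 51, of which 40 had a row and 20 were tested. Of these 20, *C1qbp* was called higher, *C1s1* was called lower and 18 were not called, and 9 of 20 did not overlap between the groups, against 10.9% called and 36.9% not overlapping over all genes tested. Their median log2 difference was -0.03, against 0.02 over all genes tested. The 11 without a row were *C4a*, *Mbl1*, *Mbl2*, *Fcnb*, *Cfd*, *C7*, *C8a*, *C8b*, *C9*, *Cd55b* and *Cpn2*.

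**Figure D2:**
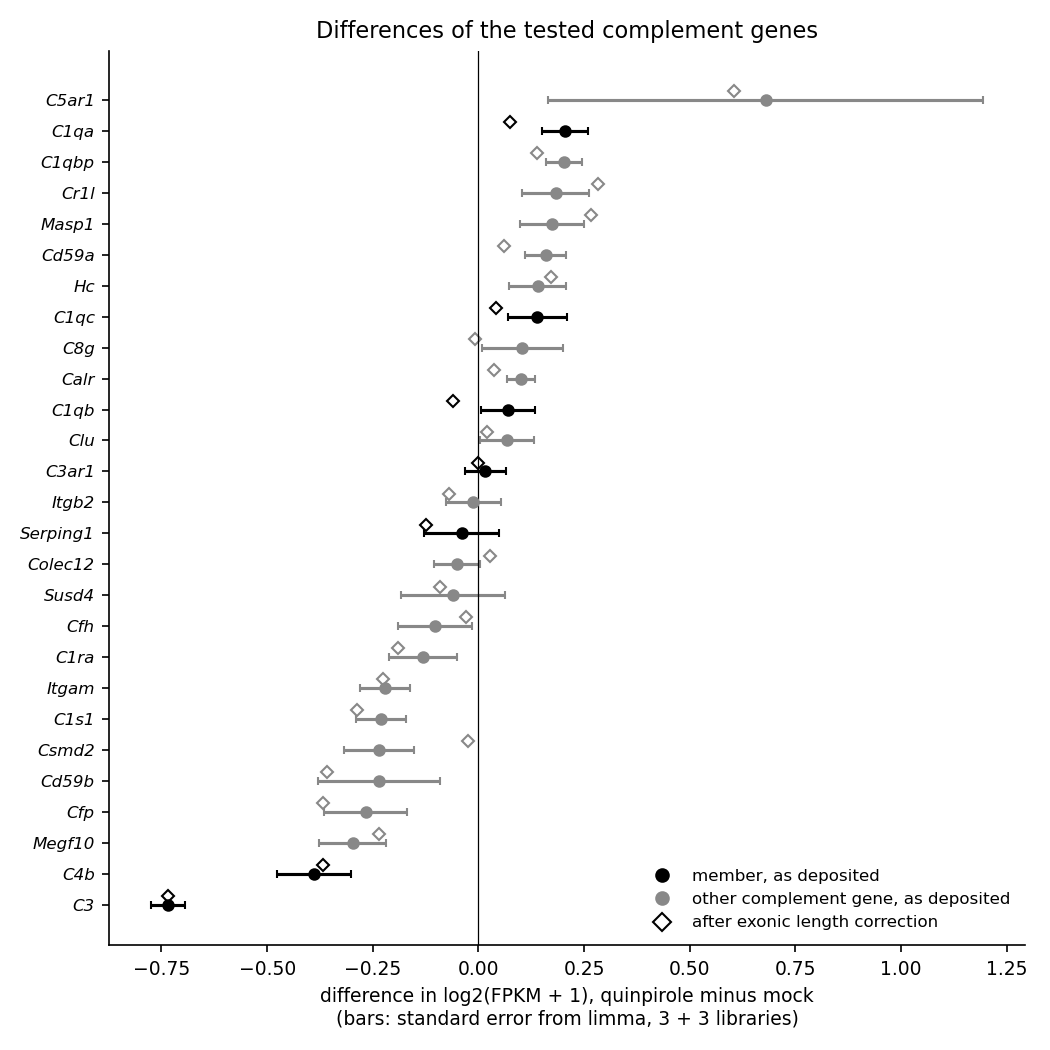
Difference in log2(FPKM + 1), quinpirole minus mock, of the 27 complement genes tested, with standard errors from limma over 3 mock and 3 quinpirole libraries as bars and the value after correction for exonic length as open diamonds. *C3* at -0.74 lies apart from the others, and *C5ar1* has the widest bar because mock library 1 was low.

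In the initiation step, 4 of 15 listed genes were tested, 1 was called lower and 3 were not called. *C1s1* encodes the C1s protease, and was at 7.80, 7.02 and 7.27 FPKM in mock and at 6.37, 5.93 and 6.07 FPKM in quinpirole libraries. Each quinpirole library was below each mock library, and *C1s1* was called lower, with a log2 difference of -0.23 (SE 0.06, limma adjusted p = 0.0497, n = 3 each). The call of *C1s1* was lost when any 1 library was left out, and 24.3% of its words are shared with *C1s2*, which was at 0.0267 to 0.0404 FPKM in mock and 0.125 to 0.217 FPKM in quinpirole libraries. *C1ra*, the partner protease C1r, overlapped between the groups with means of 10.8 ± 1.08 and 9.80 ± 0.661 FPKM (SD, n = 3 each), and it shares 50.8% of its words with *C1rb* and *Gm18840*. The scavenger collectin *Colec12* overlapped as well, at 35.6 ± 1.53 FPKM in mock and 34.3 ± 2.09 FPKM in quinpirole libraries. *Masp1*, a protease of the lectin pathway, was at 3.00 to 3.30 FPKM in mock and 3.42 to 4.10 FPKM in quinpirole libraries, without overlap, and was not called (log2 difference 0.17, limma adjusted p = 0.166), with 0.27 after exonic length correction.

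Among receptors and binding partners, 6 of 11 listed genes were tested, 1 was called higher and 5 were not called. *C1qbp*, a mostly mitochondrial protein named for binding the globular heads of C1q, was at 41.9, 43.7 and 41.7 FPKM in mock and at 47.3, 51.1 and 48.8 FPKM in quinpirole libraries. The groups did not overlap, and *C1qbp* was called higher with a log2 difference of 0.20 (SE 0.04, limma adjusted p = 0.0325, n = 3 each). The call was lost when any 1 library was left out, and after correction for exonic length, when the difference was 0.14 (limma adjusted p = 0.0893). *Itgam*, a subunit of the receptor for the C3 fragment iC3b on microglia, was at 20.4 to 22.9 FPKM in mock and 17.2 to 19.2 FPKM in quinpirole libraries, without overlap, and was not called (log2 difference -0.22, limma adjusted p = 0.0543). *Calr*, a chaperone that can bind C1q at the cell surface, was at 324 ± 6.29 FPKM in mock and 348 ± 3.82 FPKM in quinpirole libraries (SD, n = 3 each) and was not called (limma adjusted p = 0.0879).

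*C5ar1*, the receptor for the C5a fragment, stood out among all the complement genes for a single library and was chosen after its values were seen. It was at 2.99, 15.8 and 16.1 FPKM in mock libraries 1 to 3 and at 15.0, 17.5 and 14.9 FPKM in quinpirole libraries 1 to 3. Mock library 1 was far below the other 5 libraries. The log2 difference was 0.68 with a standard error of 0.51 over all libraries and -0.02 without mock library 1.

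Among regulators, 7 of 16 listed genes were tested and 0 were called. *Clu*, the soluble inhibitor clusterin, was the most abundant complement gene of all at 862 to 1013 FPKM in mock and 935 to 1007 FPKM in quinpirole libraries, and its groups overlapped. *Cd59a*, which blocks the membrane attack complex, was at 50.5 ± 2.75 FPKM in mock and 56.4 ± 1.52 FPKM in quinpirole libraries (SD, n = 3 each), without overlap, and was not called (limma adjusted p = 0.0731). *Cr1l*, the rodent inhibitor Crry, overlapped at 14.3 to 16.8 FPKM in mock and 15.9 to 18.7 FPKM in quinpirole libraries. Thus *Cr1l*, *Cd59a* and *Clu* were far above *Cd55* in every library.

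In the alternative and terminal steps little was measured. *Cfp*, encoding properdin, which stabilizes the alternative enzyme, was at 7.58 ± 1.05 FPKM in mock and 6.11 ± 0.429 FPKM in quinpirole libraries (SD, n = 3 each) and overlapped. *Hc*, which encodes C5, was at 1.46 to 1.65 FPKM in mock and 1.77 to 1.85 FPKM in quinpirole libraries and was not called. *C6* was listed at 0 to 0.0253 FPKM, and *C7*, *C8a*, *C8b* and *C9* had no row.

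Since the FPKM tables hold no counts, the steps between low values were used to estimate depth, at 25300000 to 27400000 fragments in mock and 22100000 to 26800000 fragments in quinpirole libraries, with 60.2 to 66.5% of low values within 0.1 of a whole fragment against 20.0% by chance. The difference between groups was related to gene length, with a Spearman rho of -0.475 across 12223 genes, which are not independent replicates. When the genes were divided by exonic length into 5 equal classes, the median log2 difference was 0.12 in the shortest class, which holds *C1qa*, *C1qb*, *C1qc* and *Serping1*. It was 0.02 in the middle class with *C3* and *C3ar1*, -0.03 in the next with *C4b*, and -0.11 in the longest. After each library was corrected for this relation, *C3* stayed at -0.73 and *C4b* was at -0.37. The call of *C3* was kept and that of *C4b* was lost. With a block for same-numbered libraries added to the correction, the call of *C3* was lost too. Since the genes were selected on this contrast, nothing is read from these calls. *C1qa* moved from 0.21 to 0.07, *C1qc* from 0.14 to 0.04, *C1qb* from 0.07 to -0.06 and *Serping1* from -0.04 to -0.12. The part of length in the difference of *C1qa* was otherwise not tested. The correction would also take away a real difference that follows length.

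**Figure D3:**
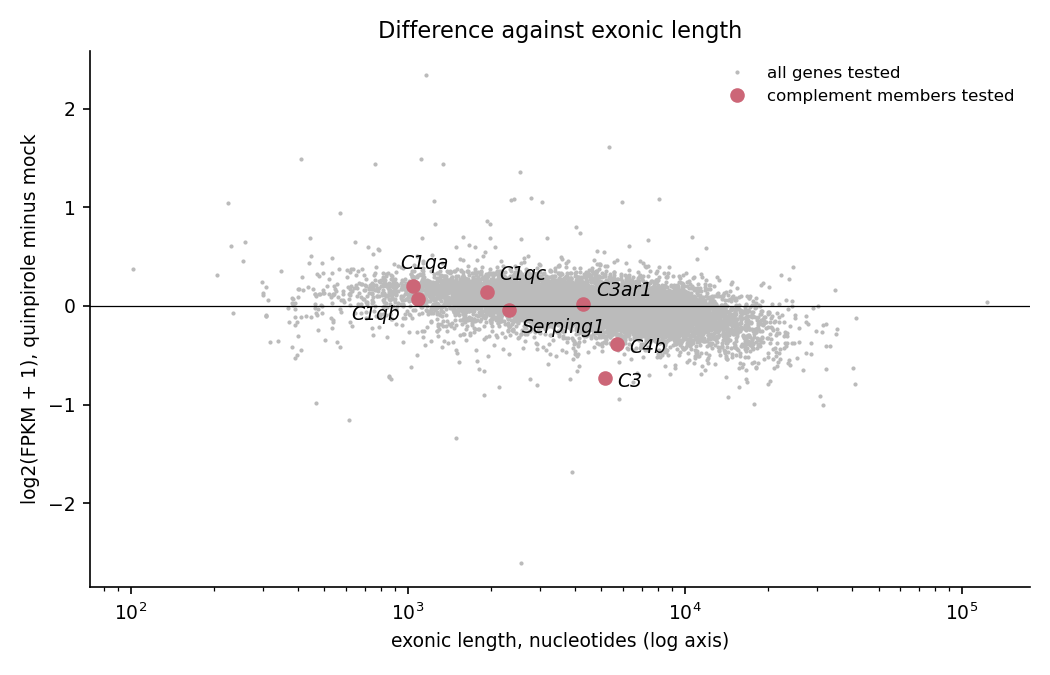
Difference in log2(FPKM + 1), quinpirole minus mock, against exonic length in nucleotides (log axis) for the genes tested (grey) and the 7 complement genes among them (red). The cloud slopes downward with length, the short C1q genes lie within it, and *C3* with 5143 nucleotides lies below it.

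Markers of the isolated cells and of their neighbours were read in the same libraries. All 9 astrocyte markers were tested, with *Gfap* at 482 to 560 FPKM and *Slc1a3* at 186 to 215 FPKM, but the glutamate transporter *Slc1a2* only at 5.15 to 8.55 FPKM. Their summed level was 1435 to 1598 FPKM in mock and 1436 to 1463 FPKM in quinpirole libraries, and *Atp1b2* and *Slc1a2* were called lower. After exonic length correction the log2 difference of *Slc1a2* moved from -0.42 to -0.27 and its call was lost (limma adjusted p = 0.0573). That of *Atp1b2* moved from -0.19 to -0.21 and its call was kept (limma adjusted p = 0.0419). Markers of other cell types were present too. The 10 microglial markers reported here summed to 384 to 416 FPKM in mock and 403 to 437 FPKM in quinpirole libraries, with overlap and in a ratio of the means of 1.04, while the C1q chains summed to 559 to 627 and 608 to 692 FPKM in a ratio of 1.10, also with overlap. The FPKM of all genes summed to 401769 to 413730 in mock and to 425244 to 437164 in quinpirole libraries, without overlap. The difference of the microglial sums was 15.7 FPKM, and -2.64 FPKM after quantile normalization. Of the microglial markers 9 were tested and 0 were called by limma, with 3 at an unadjusted p under 0.05. Over all 12255 genes tested, 3839 had an unadjusted limma p under 0.05. The defining markers *Siglech* and *P2ry12* were at 0 to 0.0549 and 2.01 to 2.65 FPKM.

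The microglial markers did not all lie on the same side. *Aif1* and *Selplg* were higher in each quinpirole library than in each mock library, *Csf1r* and *Cx3cr1* were lower in each, and 5 overlapped. Over all genes tested 36.9% did not overlap. After exonic length correction the log2 difference of *Aif1* moved from 0.22 to 0.11 and that of *Selplg* from 0.07 to 0.05. *Csf1r* moved from -0.16 to -0.14 and *Cx3cr1* from -0.12 to -0.13. *Csf1r* was at 56.2 ± 1.87 FPKM in mock and 50.2 ± 1.65 FPKM in quinpirole libraries, and *Aif1* was at 9.82 ± 1.01 and 11.6 ± 0.957 FPKM (SD, n = 3 each). *C3ar1* lay between these with overlapping groups. The part of the amount of microglial RNA in the values of the C1q chains was not tested.

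**Figure D4:**
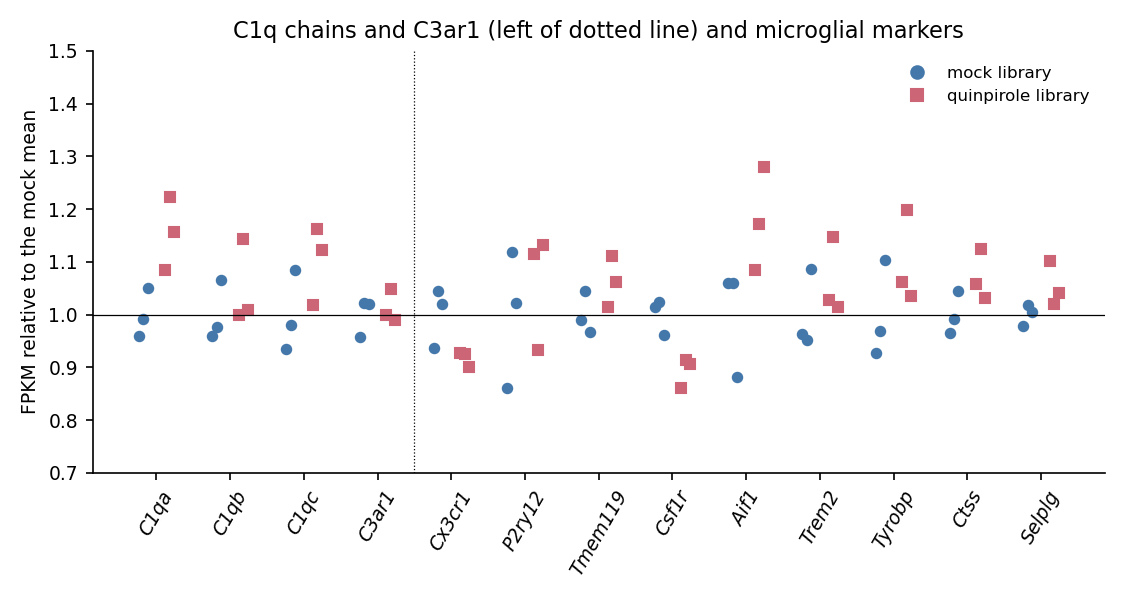
FPKM relative to the mock mean for the C1q chains and *C3ar1* and for 9 microglial markers in each mock (circles) and quinpirole (squares) library. *Aif1* is higher and *Csf1r* lower in all 3 quinpirole libraries, and *C1qa* lies on the side of *Aif1*.

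Border macrophages, vessels and the meninges are further possible sources of RNA in such an isolate. The 5 markers of border macrophages, which also make C1q, summed to 1.34 to 2.07 FPKM in mock and 2.55 to 3.39 FPKM in quinpirole libraries, where *Pf4* was called higher and *Mrc1* was at or below 0.389 FPKM. *Pf4*, at 0.875 to 1.27 FPKM in mock and 1.81 to 2.51 FPKM in quinpirole libraries, made up most of these sums, and its call was lost after exonic length correction (limma adjusted p = 0.0581). The 4 fibroblast markers summed to 113 to 128 FPKM in mock and 89.7 to 101 FPKM in quinpirole libraries. Most of this was *Col1a1*, which was called lower, at 92.1 to 104 and 70.0 to 80.4 FPKM. *Col1a2*, *Dcn* and *Lum* overlapped between the groups, and *Dcn* had a higher mean after quinpirole (0.907 and 1.18 FPKM). The 4 mural markers summed to 25.4 to 27.4 and 21.1 to 22.0 FPKM. Nearly all of this was *Pdgfrb*, which was called lower, at 25.0 to 27.2 and 20.7 to 21.6 FPKM. Each of the other mural markers was at or below 0.420 FPKM and overlapped. After exonic length correction *Col1a1* and *Pdgfrb* were at -0.30 and -0.28 on the log2 scale. Both calls were kept (limma adjusted p = 0.0468 and 0.0308). Endothelial markers summed to 7.92 to 8.27 and 6.50 to 7.67 FPKM. By limma 0 of the 2 tested were called and 1 had an unadjusted p under 0.05, against 3839 of all 12255 genes. The part of these cells in the difference of *C3*, which fibroblasts can also make, was not tested. Neuronal markers, of which *Stmn2* was called higher, summed to 54.3 to 57.3 and 62.9 to 68.3 FPKM. Nearly all of this was *Stmn2*, at 53.3 to 56.5 and 61.9 to 67.2 FPKM, while each of the other neuronal markers was at or below 0.675 FPKM. The call of *Stmn2* was kept after exonic length correction, at 0.24 on the log2 scale (limma adjusted p = 0.0454). Summed levels overlapped for ependymal markers (145 to 164 and 144 to 154 FPKM), oligodendrocyte markers (156 to 176 and 162 to 173 FPKM) and choroid plexus markers (28.9 to 29.6 and 29.5 to 31.1 FPKM). The oligodendrocyte sum was mostly *Cnp*, at 151 to 171 and 158 to 169 FPKM. Those of oligodendrocyte precursors were 2.24 to 2.92 and 1.84 to 2.05 FPKM, and those of neutrophils were at most 0.185 FPKM. Of 12 general markers of reactive astrocytes, all tested, *Timp1* was called higher and *Osmr* lower. Both calls were lost after exonic length correction, where *Timp1* moved from 0.43 to 0.29 and *Osmr* from -0.17 to -0.04 on the log2 scale (limma adjusted p = 0.0656 and 0.544). Of 11 markers of the A1 reactive state other than complement genes, 9 were tested and 0 were called by limma. Of these 9, 1 had an unadjusted limma p under 0.05, against 3839 of all 12255 genes. The 11 markers summed to 274 to 317 FPKM in mock and 278 to 300 FPKM in quinpirole libraries.

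Genes with the pattern most like *C3* were ranked by the Pearson correlation of log2(FPKM + 1) over the 6 libraries, as a description. They were *Cttnbp2* (0.998), *Nwd1* (0.998), *Rnf19a* (0.998), *Crb2* (0.996) and *Ccdc157* (0.994). Each was lower after quinpirole, as in *Crb2* with means of 60.7 and 48.6 FPKM, but by less than *C3*. With 6 points in 2 groups that differ, high values were common, and 764 of 12254 genes exceeded 0.9. For the mean of the C1q chains the 5 nearest were *Fam162a* (0.999), *Gpr176* (0.993), *Morn2* (0.993), *Phpt1* (0.993) and *Blvra* (0.992), and 433 of 12252 genes exceeded 0.9. Among microglial markers the C1q mean correlated at 0.93 with *Tyrobp*, 0.93 with *Ctss* and 0.89 with *Trem2*. It correlated at 0.63 with *Tmem119*, 0.34 with *Aif1*, 0.24 with *Selplg* and 0.08 with *P2ry12*. With *Cx3cr1* the value was -0.37 and with *Csf1r* -0.61. The correlation of *C3* with *C4b* was 0.90 and with *Serping1* 0.20.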

How the data were processed

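Astrocyte mRNA from 3 mock and 3 quinpirole libraries had been sequenced in pairs. The authors trimmed the reads and mapped them with TopHat2, to GRCm38 per the submitters' processing notes, and deposited, for each library, a table with 1 FPKM value per gene. The version of TopHat2, the program for FPKM, its annotation and the use of strand are not given in the sources used here. FPKM values are already scaled to depth and length, so no counts were available for testing and depth was estimated from low values. The scaling left a relation of the group difference to gene length (Spearman rho -0.475).

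Identifiers were matched to symbols (17090 of 17193), and positions, exonic lengths and 50-base words came from GENCODE M21 on GRCm38. Genes whose FPKM averaged at least 1 were fitted on log2(FPKM + 1) with limma 3.58.1 in R 4.3.3 (lmFit, eBayes with trend, two-sided, Benjamini-Hochberg over all genes, threshold 0.05). The fit and the depth estimate were tested on simulated data. For the length correction, each library's deviation from the gene mean was regressed on log2 exonic length (loess, span 0.3) and the curve subtracted. The other alternatives were the pseudocount, the filter, scaling, quantile normalization, a replicate block, the variance estimate and leaving out each library. Groups came from the labels. Deviations of same-numbered libraries correlated at 0.03, -0.07 and -0.10, so no strong shared deviation was seen. With 3 libraries per group this cannot tell whether same-numbered libraries were handled together. The main fit was unpaired.

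Named genes were the 9 complement genes, every other complement gene past the threshold, the 3 with the highest mean FPKM among initiation genes, receptors and binding partners, and regulators, the 5 genes nearest to *C3* and to the C1q mean, and markers whose list moved with them. 1 microglial marker is not reported here. *C5ar1*, *Masp1*, *C1s2*, *Cfp*, *Hc*, *C6*, *Csmd1*, *Csmd2*, *Vtn*, *Vsig4* and *C1rb* were named after their values were seen. The genes, the lists and the tests were chosen with earlier results of these data known. Tables and figures used Python 3.11.15, numpy 2.4.6, pandas 2.3.3 and matplotlib 3.10.9.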

Additional observations from a re-analysis of the deposited data

How the results depend on the processing

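The number of genes called over all genes depended strongly on the settings. It was 1339 (704 higher, 635 lower), 633 without a filter on low values, 783 (283 higher, 500 lower) after quantile normalization, 714 with eBayes without trend, 1428 with a mean FPKM of at least 5, 1549 with robust estimation and 509 after exonic length correction. With single libraries left out in turn it was 6, 3 and 1215 without mock libraries 1, 2 and 3. It was 11, 25 and 210 without quinpirole libraries 1, 2 and 3. Among the 9 complement genes, 1 was called without the filter, without trend, and after exonic length correction, 1 to 2 with single libraries left out, and 3 (1 higher, 2 lower) with a mean FPKM of at least 5 and with robust estimation. Among the other complement genes 4 were called without the filter, with a mean FPKM of at least 5 and with robust estimation. After exonic length correction 1 was called. By limma 0 were called after quantile normalization, without trend and with any library left out. In these last settings 6 to 10 of them had an unadjusted limma p under 0.05, against 2891 to 3920 of all 12255 genes.

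With the replicate block, 2 genes were called in all, 1 among the 9 complement genes and 0 among the others by limma, with 3308, 4 and 7 at an unadjusted p under 0.05. Whether the libraries were paired by number is not known. With the replicate block and exonic length correction 0 were called by limma in each of these sets, with 2723, 2 and 9 at an unadjusted p under 0.05, and the difference of *C3* was -0.73.

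Directions turned where differences were small. *C1qb* was at -0.0545 after quantile normalization and at -0.0607 after exonic length correction with or without the block. *C3ar1* was at -2.6e-05 after exonic length correction with or without the block and at -0.0125 to 0.0318 with single libraries left out. *Serping1* ranged from -0.130 to 0.0515 and *C5ar1* from -0.0152 to 1.03 with single libraries left out. *Colec12* was at 0.0275 after exonic length correction with or without the block, and *Calr* and *Clu* were at -0.0292 and -0.0345 after quantile normalization. The cause of these turns was not tested. The lowest depth was that of *Cfb* and *Cd55*, at 35.3 to 86.1 estimated fragments per library.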

Other observations

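Of the 20 other complement genes below the limit for testing, 6 had values that did not overlap between the groups, against 10.9% of all 4938 genes below it. The genes named here were chosen after the values were seen. *Csmd1*, a large membrane protein that inhibits complement in the brain, was at 1.11, 1.22 and 1.20 FPKM in mock libraries and at 0.734, 0.625 and 0.760 FPKM in quinpirole libraries 1 to 3. It has 19030 exonic nucleotides, in the longest class of genes, whose median log2 difference was -0.11. Its relative *Csmd2*, also long, moved from -0.24 to -0.02 on the log2 scale after exonic length correction. *Vtn*, encoding vitronectin, an inhibitor of the terminal complex, was at 0.711 ± 0.0488 FPKM in mock and 0.457 ± 0.0499 FPKM in quinpirole libraries (SD, n = 3 each). *Vsig4*, a receptor for C3 fragments on tissue macrophages, was at 0.119 to 0.152 FPKM in mock and 0.189 to 0.271 FPKM in quinpirole libraries. *C1rb* was at 0.0600 to 0.395 FPKM in mock and listed at 0 in all 3 quinpirole libraries, while *C1s2* was higher in each quinpirole library, and both share transcript words with a neighbouring gene. Apart from *Csmd2*, which was not called (limma adjusted p = 0.102), these genes were not tested in the main fit. The 4 other complement genes called without the filter included *Csmd1* and *Vtn*, both lower (limma adjusted p = 0.0397 and 0.0458).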
